A study of Mus musculus with 12 samples.

Results

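The genes described here encode insulin, amylin and the proteins that package and cut prohormones in the secretory granule of the pancreatic beta cell. The list held 10 genes: Ins2, Iapp, Pcsk1, Pcsk2, Cpe, Slc30a8, Scg5, Chga, Chgb and Vgf. For each gene the probe with the highest mean over all samples was taken, and it was kept if it lay above background in at least 2 samples. This gave 8 measured genes among the 9352 genes tested, and Pcsk2 and Cpe, which have no probe named here, were not analysed. All 8 lay above background in all 12 samples.

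RNA was measured on Illumina bead arrays in 12 samples of mouse cells. The series asked how gene expression in beta cells differs between ages. The cells came from islets of animals heterozygous for a Pdx1-GFP transgene on a cross with ICR mice, were dissociated with trypsin and were sorted for green fluorescence. All groups share this genotype and sort, and 4 samples were taken at E18.5, an embryonic stage shortly before birth, 3 at postnatal day 1 (P1), 2 at postnatal day 10 (P10) and 3 from adults of 5 weeks. The Pdx1 promoter drives the fluorescent protein, and since pancreatic progenitors and some other pancreatic cells also use it, the sort is by this promoter and not by insulin. No label ties a sample to its own animal or litter, so the p-values cover only the spread between these samples, and the small number of arrays limits their precision.

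Insulin is made as preproinsulin, which enters the endoplasmic reticulum, loses its signal peptide, folds around disulfide bonds and is sorted into granules. There the prohormone convertases encoded by Pcsk1 and Pcsk2 cut proinsulin, and the carboxypeptidase encoded by Cpe trims the ends. Zinc brought in by the transporter ZnT8, the product of Slc30a8, crystallises insulin, and amylin, the product of Iapp, is cut by the same enzymes and released with it. The granins Chga, Chgb and Vgf are acidic granule proteins, and Scg5 encodes 7B2, the chaperone that Pcsk2 needs to mature.

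Promoters are shown for the 3 genes whose level differed over the ages, Iapp, Scg5 and Chga, and for the granin Chgb, which did not pass that test. Each sequence, from the RefSeq table on build GRCm38.p6, runs from 250 bases before to 50 bases after the annotated start of the gene. Capitals mark TGACG, the core of the cyclic AMP response element, and TAAT, the core letters read by homeodomain factors such as Pdx1, on either strand.
The Iapp promoter lies on chromosome 6 at chr6:142298175-142298474, plus strand.
Iapp: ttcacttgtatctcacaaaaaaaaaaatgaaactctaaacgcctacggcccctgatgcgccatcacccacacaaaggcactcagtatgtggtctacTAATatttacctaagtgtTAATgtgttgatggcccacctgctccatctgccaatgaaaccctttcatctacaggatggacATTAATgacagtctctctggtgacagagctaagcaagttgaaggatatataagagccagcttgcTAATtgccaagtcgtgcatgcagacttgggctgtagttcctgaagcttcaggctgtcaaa
The Scg5 promoter lies on chromosome 2 at chr2:113829042-113829341, minus strand.
Scg5: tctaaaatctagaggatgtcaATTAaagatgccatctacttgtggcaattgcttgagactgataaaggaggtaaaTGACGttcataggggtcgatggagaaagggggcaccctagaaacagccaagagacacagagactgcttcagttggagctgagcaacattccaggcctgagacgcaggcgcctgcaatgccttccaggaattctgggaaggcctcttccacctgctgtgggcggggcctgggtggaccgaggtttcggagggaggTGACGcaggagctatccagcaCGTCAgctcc
The Chga promoter lies on chromosome 12 at chr12:102554691-102554990, plus strand.
Chga: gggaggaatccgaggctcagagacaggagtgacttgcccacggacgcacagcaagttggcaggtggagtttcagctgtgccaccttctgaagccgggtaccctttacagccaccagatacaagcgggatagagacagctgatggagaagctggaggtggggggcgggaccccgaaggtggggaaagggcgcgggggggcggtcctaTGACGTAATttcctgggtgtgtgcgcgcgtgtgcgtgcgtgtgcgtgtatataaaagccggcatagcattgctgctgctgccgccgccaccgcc
The Chgb promoter lies on chromosome 2 at chr2:132781392-132781691, plus strand.
Chgb: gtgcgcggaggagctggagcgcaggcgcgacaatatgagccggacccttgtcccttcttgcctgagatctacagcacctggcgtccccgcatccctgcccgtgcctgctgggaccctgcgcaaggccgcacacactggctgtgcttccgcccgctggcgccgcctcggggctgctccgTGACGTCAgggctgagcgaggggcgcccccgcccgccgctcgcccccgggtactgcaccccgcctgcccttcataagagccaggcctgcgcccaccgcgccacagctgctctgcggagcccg

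The promoter table held 6 of the 10 listed genes, the 4 above with Pcsk1 and Pcsk2. TGACG was present in 5 of these 6 promoters, against 20.8% of all 32851 promoters of the same length in the table. TAAT was present in 4 of the 6 and in 58% of all promoters, and CANNTG, the E-box letters, in 5 of the 6 and in 72.3% of all. Iapp held 5 copies of TAAT, 3 of CANNTG and 0 of TGACG. Scg5 held 3 copies of TGACG, Chga 1 and Chgb 2, and in Chgb both copies lie in the palindrome TGACGTCA, which is counted on each strand. The Scg5 copies at 19 and 40 lie after the annotated start. The copy in Chga directly adjoins TAAT and shares no base with it. These are letter matches in a window and not measured binding, and motif content was not tested against the levels below.

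The labelled cell type was checked against marker genes. All 9 measured of 11 beta cell markers, a list that holds Ins2, Iapp and Slc30a8, lay above background on every array, averaging on the log2 scale 9.73 ± 0.09 (SD, n = 4) at E18.5, 9.68 ± 0.13 (n = 3) at P1, 10.20 ± 0.04 (n = 2) at P10 and 10.35 ± 0.09 (n = 3) in adults. Markers of other islet cells, 8 measured of 11, were high too. Their mean log2 level was 10.77 in E18.5 samples, 10.63 in P1, 10.43 in P10 and 9.70 in adult samples. Ghrl fell furthest, with levels of 9.81, 9.22, 5.81 and 4.52 in the same order. Gcg, Sst, Pyy, Irx2 and Hhex were also lower on average in adults than at E18.5, while Ppy and Ttr were higher. The summed intensity of the 8 lay between 26100 and 41200 at E18.5, 28900 and 35400 at P1, and 38800 and 45000 at P10. It was lowest in adult replicate 3, at 21400 against 44200 and 45000 in the other adults. Acinar markers, 26 measured of 30, averaged a log2 level of 5.50 ± 0.62 (SD) in E18.5 samples, 6.38 ± 1.01 in P1, 9.91 ± 0.99 in P10 and 10.38 ± 0.71 in adult samples. Their summed intensity lay between 656 and 3510 at E18.5, between 895 and 7050 at P1, between 27500 and 74300 at P10 and between 36800 and 103000 in adults. Acinar markers therefore moved with most of the comparisons below: 25 of 26 were higher at P10 than at P1, and all 26 were higher in adults than at E18.5 or P1. Between 7 and 21 of the 26 lay above background in an E18.5 sample, and 25 or 26 in an adult sample. Rbpjl, Cuzd1, Ctrc and Gp2 did so in 4, 5, 6 and 6 of the 12 samples. The filter could be passed through the older ages alone, so these counts are partly set by it. Some markers of 4 further cell types were lower in adults than at E18.5. Of 7 measured duct markers, 5 were lower in adults than at E18.5 and 6 lower than at P1, and their summed intensity lay between 2440 and 3440 in E18.5 samples, 2560 and 3000 in P1, 1710 and 2050 in P10, and 1390 and 1510 in adult samples. Tspan8 went the other way, with mean levels of 6.15, 6.26, 8.03 and 6.86 from E18.5 to adult. Sox9 was dim, above background in 7 of the 12 samples, and 4 to 6 of the 7 duct markers were above it in an adult sample. Endothelial markers were lower in adults than at E18.5 for 4 of 6, stromal markers for 2 of 6 and immune markers for 2 of 3, and lower than at P1 for 1 of 6, 0 of 6 and 1 of 3. Of all tested genes, 21.8% were lower in adults than at E18.5 and 19.5% lower than at P1. Pecam1, Tek, Col1a1, Lum and Cd52 lay above background in 5, 4, 3, 2 and 2 of the 12 samples, and Esam, Egfl7 and Plvap in all 12. An adult sample had 3 endothelial, 0 to 2 stromal and 0 or 1 immune markers above background. The filter could be passed through the younger ages alone, so these counts too are partly set by it. The summed intensity of each of these 3 lists was at most 1140 in any sample. Their part in the differences was not tested, other than by fits that add a marker list to the model. In bulk samples of this kind, fewer cells of a type and less RNA per cell cannot be told apart.

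**Figure D1:**
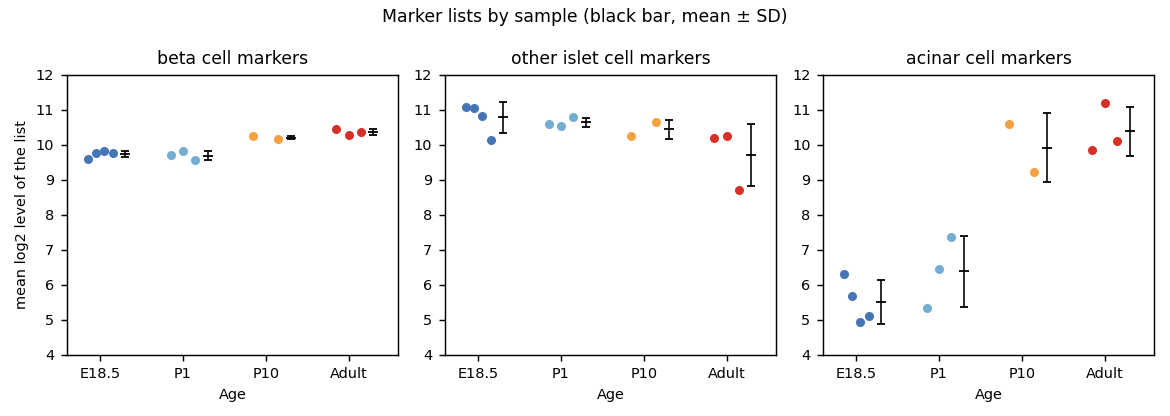
Mean log2 level of the measured beta cell, other islet cell and acinar cell markers in each of the 12 samples, by age, with black bars for the mean ± SD of an age. Acinar markers average 5.50 and 6.38 at E18.5 and P1 and 9.91 and 10.38 at P10 and in adults, and the lowest adult sample for other islet cells, at 8.69, is replicate 3.

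Of the 8 genes, 3 differed over the 4 ages by limma's F-test at an adjusted p under 0.05, where 43.3% of all tested genes did, so the share is near that of all genes. These were Scg5 (adjusted p = 0.0013), Iapp (0.0021) and Chga (0.0045). Slc30a8, at an adjusted p of 0.061, lay just short of the threshold. Age means spanned 1.29 log2 units for Iapp, 1.06 for Scg5, 1.00 for Vgf and 0.72 for Chga, against a median of 0.40 over all tested genes. Within an age, the pooled SD of these 4 was 0.39, 0.28, 0.52 and 0.23, against a median of 0.16. In the sentences below levels and differences are on the log2 scale after quantile normalization, differences are given ± standard error, and the adjusted p is that of limma over all 9352 genes.

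**Figure D2:**
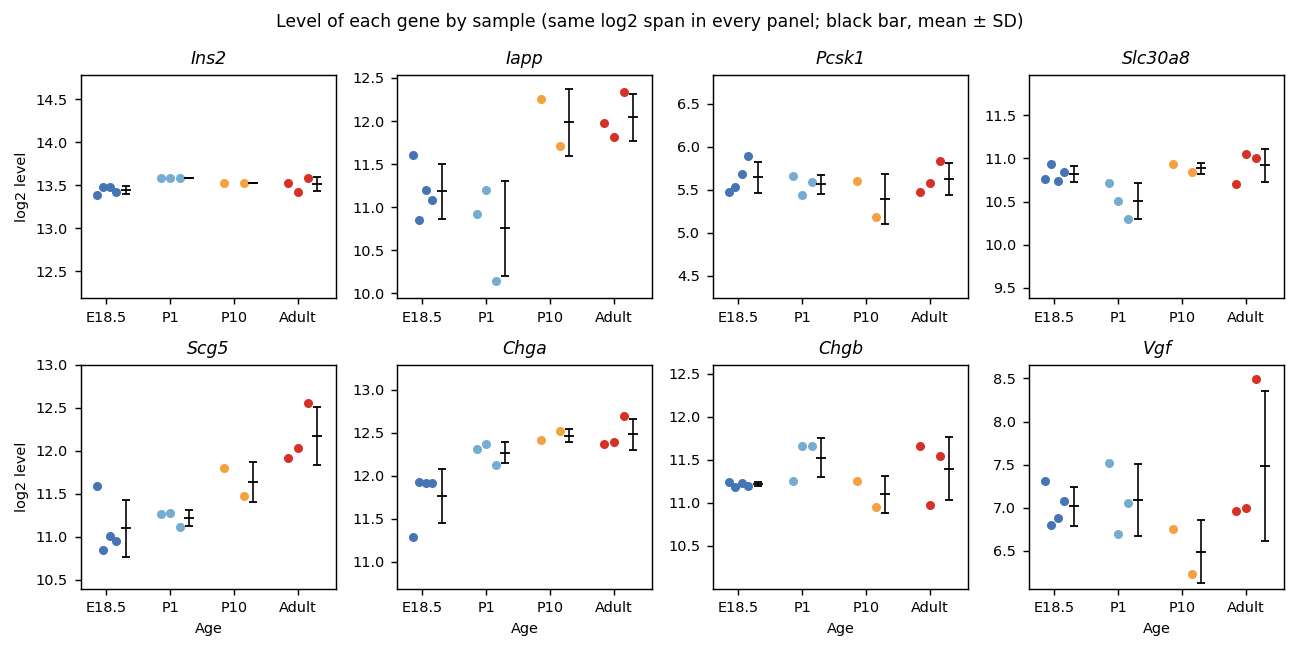
Log2 level of each of the 8 measured genes in every sample, by age from E18.5 to adult, with black bars for the mean ± SD and the same span of log2 units in each panel. Iapp sits between 10.14 and 11.61 at E18.5 and P1 and between 11.71 and 12.34 at P10 and in adults, while Ins2 stays between 13.39 and 13.58.

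Ins2, the mouse insulin gene whose structure matches that of other mammals, had a deposited intensity of 10706.8, 9992.8, 9694.1 and 9382.8 at E18.5, 11184.7, 13885.2 and 11412.2 at P1, 12723.9 and 12037.8 at P10, and 13823.4, 12560.9 and 14565.3 in adults. Every later sample was above every E18.5 sample on this scale. Its probe ranked between 1 and 5 on every array, and quantile normalization gives each rank the same value on all arrays, so its normalized level was held between 13.39 and 13.58. The adult minus E18.5 difference was 0.07 ± 0.09 (adjusted p = 0.58, 95% interval -0.12 to 0.26). With each array centred on its median in place of quantile normalization, that difference was 0.40 (adjusted p = 0.0054), and on the deposited values with no scaling it was 0.46 (adjusted p = 0.0017), and over all alternatives the adjusted p lay between 0.0017 and 0.93. The same centring moved the median of all genes to -0.11. Among the probes of its array, Ins2 ranked 5, 3, 3 and 4 at E18.5 and 2, 4 and 1 in adults. Whether Ins2 was higher in adults than at E18.5 thus depended on the scaling.

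Iapp encodes amylin, the peptide stored and released with insulin. Its log2 level was 11.61, 10.85, 11.20 and 11.08 at E18.5, 10.92, 11.20 and 10.14 at P1, 12.26 and 11.71 at P10, and 11.98, 11.81 and 12.34 in adults. Both older ages lay above both younger ones with no overlap, and P1 replicate 3 was the lowest sample. Iapp rose at P10 by 1.23 ± 0.28 over P1, or 2.35-fold (adjusted p = 0.011). Leaving out P10 replicate 1, the brighter of the 2 samples of that age, gave 0.95 with an adjusted p of 0.15, and over all alternatives the adjusted p lay between 0.0071 and 0.37. Adults exceeded P1 by 1.29 ± 0.25, or 2.45-fold (adjusted p = 0.0011), and E18.5 by 0.86 ± 0.24, or 1.81-fold (adjusted p = 0.0097). The call against E18.5 missed the threshold without adult replicate 3, at 0.70 and an adjusted p of 0.055, and over all alternatives the adjusted p lay between 0.0026 and 0.54. Between adults and P10 the difference was 0.06 ± 0.28 (95% interval -0.54 to 0.67), and between P1 and E18.5 it was -0.43 ± 0.24 (adjusted p = 0.32).

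Slc30a8 encodes the zinc transporter of the insulin granule. Its log2 level was 10.76, 10.94, 10.74 and 10.84 at E18.5, 10.72, 10.51 and 10.30 at P1, 10.93 and 10.84 at P10, and 10.70, 11.05 and 11.01 in adults. P1 was the lowest age, and its 3 samples lay below all samples of E18.5 and P10 and overlapped the adults through adult replicate 1. Adults exceeded P1 by 0.41 ± 0.13, or 1.33-fold (adjusted p = 0.022). The adjusted p of this call was 0.057 without P1 replicate 2, 0.1 without P1 replicate 3, 0.086 without adult replicate 2, 0.071 without adult replicate 3 and 0.057 in a fit of the 2 ages alone, with a range over all alternatives of 0.0063 to 0.43. P10 minus P1 was 0.37 ± 0.14 (adjusted p = 0.11) and P1 minus E18.5 was -0.31 ± 0.12 (adjusted p = 0.15). The other 2 probes of Slc30a8 gave adult minus P1 differences of 0.45 ± 0.20 and 0.42 ± 0.19, with adjusted p over all probes of 0.097 and 0.094.

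Pcsk1 encodes the convertase that makes the first cuts in proinsulin. Its probe was dim, with a deposited intensity between 51.8 and 73.5 and a log2 level between 5.19 and 5.89 over the 12 samples. The age means were 5.65 ± 0.18 (SD, n = 4) at E18.5, 5.56 ± 0.11 (n = 3) at P1, 5.40 ± 0.29 (n = 2) at P10 and 5.62 ± 0.18 (n = 3) in adults, and all ages overlapped. The adult minus E18.5 difference was -0.02 ± 0.13, with a 95% interval of -0.31 to 0.27. Brightness of a probe does not rank the abundance of genes, so the low signal is that of this probe.

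Scg5 encodes 7B2, which accompanies the precursor of the Pcsk2 convertase and is needed for its activity. Its log2 level was 11.59, 10.85, 11.01 and 10.95 at E18.5, 11.27, 11.28 and 11.11 at P1, 11.80 and 11.47 at P10, and 11.92, 12.03 and 12.55 in adults. The 3 adults were the 3 highest samples of all, and E18.5 replicate 1 stood above the P1 samples. Adults exceeded E18.5 by 1.06 ± 0.18, or 2.09-fold (adjusted p = 0.00032), and P1 by 0.94 ± 0.19, or 1.92-fold (adjusted p = 0.0016). Both calls held whichever single sample was left out. The steps between neighbouring ages did not pass: P10 minus P1 was 0.41 ± 0.22 (adjusted p = 0.25) and adult minus P10 was 0.53 ± 0.22 (adjusted p = 0.12). Iapp and Scg5 were each highest within their age in E18.5 replicate 1, P10 replicate 1 and adult replicate 3.

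Chga encodes chromogranin A, a granin that takes part in granule formation and is cut into several peptides. Its log2 level was 11.29, 11.93, 11.92 and 11.92 at E18.5, 12.31, 12.37 and 12.13 at P1, 12.41 and 12.52 at P10, and 12.37, 12.39 and 12.69 in adults. All E18.5 samples lay below all later ones, and E18.5 replicate 1 was far below the other 3. Adults exceeded E18.5 by 0.72 ± 0.15, or 1.64-fold (adjusted p = 0.0018), and by 0.55 without E18.5 replicate 1 (adjusted p = 0.0021). P1 already exceeded E18.5 in every sample, by 0.51 ± 0.15, with an adjusted p of 0.071 and a range over all alternatives of 0.037 to 0.24. The later steps were small, at 0.20 ± 0.18 for P10 minus P1 and 0.02 ± 0.18 for adult minus P10. The other 2 Chga probes were higher in adults than at E18.5 as well, by 1.10 ± 0.28 (adjusted p over all probes 0.0068) and 0.47 ± 0.14 (0.016), and all 3 probes were lowest in E18.5 replicate 1. The adult minus P1 difference, 0.21 ± 0.16 (adjusted p = 0.34), was 0.37 (adjusted p = 0.039) with median centring and 0.42 (adjusted p = 0.021) on the unscaled values, with a range over all alternatives of 0.021 to 0.99.

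Chgb encodes chromogranin B, a second granin of the insulin granule. Its log2 level was 11.24, 11.19, 11.23 and 11.20 at E18.5, 11.26, 11.66 and 11.66 at P1, 11.25 and 10.95 at P10, and 11.66, 10.98 and 11.55 in adults. The E18.5 samples lay within 0.05 of each other, and the adult samples spread over both the highest and nearly the lowest values. No comparison passed for Chgb, and the one with the largest difference was P10 minus P1 at -0.43 ± 0.19 (adjusted p = 0.16). Without adult replicate 2 the adult minus E18.5 difference of Chgb was 0.39 (adjusted p = 0.04), and with it 0.19 ± 0.16 (adjusted p = 0.36), and over all alternatives the adjusted p lay between 0.04 and 0.97.

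Vgf encodes a granin-like neuropeptide precursor. Its log2 level was 7.31, 6.80, 6.88 and 7.08 at E18.5, 7.52, 6.69 and 7.05 at P1, 6.75 and 6.23 at P10, and 6.96, 7.00 and 8.49 in adults. Adult replicate 3 stood far above the other 2 adults, which lay within the range of E18.5 and P1. Adult minus P10 was 1.00 ± 0.37 (adjusted p = 0.09), with 1.26 and an adjusted p of 0.045 without adult replicate 1, and 0.50 and 0.23 without adult replicate 3. Over all alternatives the adjusted p lay between 0.045 and 0.43. In the same sample the markers of other islet cells were at their lowest, and the relation was not tested.

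The comparisons share samples, so their counts are not independent of each other. For P1 against E18.5, 0 of the 8 genes passed limma's threshold, where 5.37% of all tested genes did (2.54% higher, 2.82% lower), and 2, Slc30a8 and Chga, had an unadjusted p under 0.05. For P10 against P1, 1 of 8 passed, Iapp, higher, beside 11.5% of all genes (5.47% higher, 6.01% lower). For adults against P10, 0 of 8 passed and 2, Scg5 and Vgf, had an unadjusted p under 0.05, beside 13.2% of all genes past the threshold (5.97% higher, 7.24% lower). For adults against E18.5, 3 of 8 were higher, Iapp, Scg5 and Chga, and 0 lower, while 18.4% of all genes were higher and 21.8% lower, 40.2% in all. For adults against P1, 3 of 8 were higher, Iapp, Slc30a8 and Scg5, and 0 lower, while 17.6% of all genes were higher and 19.5% lower, 37.2% in all. Counting both directions, the share of the 8 that passed was near that of all genes in the 3 comparisons with a call. The median difference of the 8 genes was 0.33 for adults against E18.5 and 0.31 for adults against P1, beside a median of -0.01 over all genes in both.

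**Figure D3:**
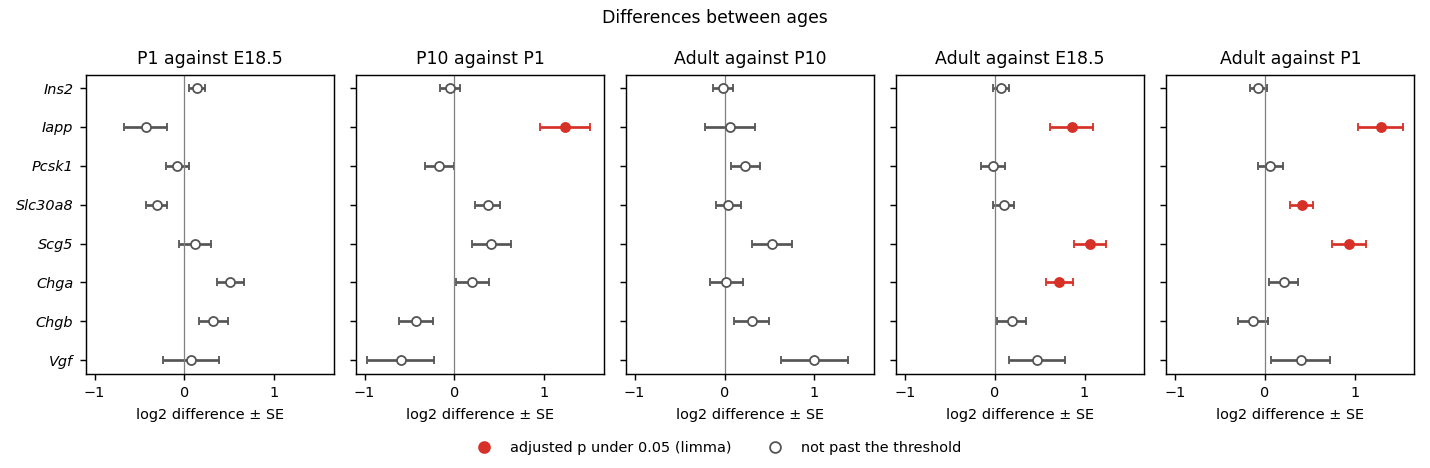
Log2 difference ± standard error of the 8 genes in the 5 comparisons, with filled marks for an adjusted p under 0.05. Filled marks lie on Iapp at P10 against P1, on Iapp, Scg5 and Chga in adults against E18.5, and on Iapp, Slc30a8 and Scg5 in adults against P1.

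**Figure D4:**
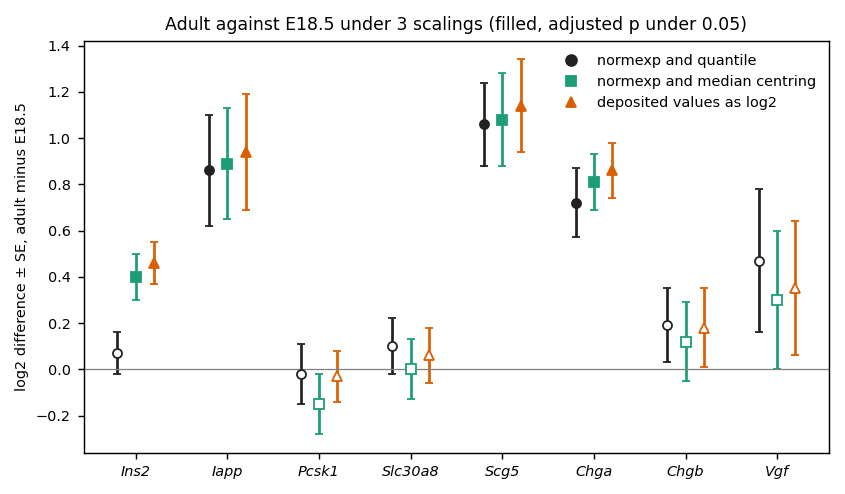
Adult minus E18.5 log2 difference ± standard error of the 8 genes under quantile normalization, median centring and the deposited values with no scaling, filled where the adjusted p is under 0.05. Ins2 is at 0.07 and open under quantile normalization, and at 0.40 and 0.46 and filled under median centring and without scaling.

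When the acinar markers' mean was added to the model, 0 of the 8 genes passed limma's threshold at P10 against P1, in adults against E18.5 or in adults against P1, and 2, 1 and 2 of them had an unadjusted p under 0.05. The standard errors were larger than in the model without it. Scg5 was 0.63 ± 0.54 in adults against E18.5 (adjusted p = 0.66), Iapp 1.50 ± 0.62 in adults against P1 (adjusted p = 0.22), and Chga 1.50 ± 0.42 in adults against E18.5 (adjusted p = 0.1), and the differences of Iapp and Chga were larger than without the term. With the mean of the other islet cell markers as the term, Scg5 alone of the 8 passed in adults against E18.5, where Iapp was 0.57 (adjusted p = 0.21) and Chga 0.47 (adjusted p = 0.093), and Slc30a8 no longer passed in adults against P1 (0.33, adjusted p = 0.16).

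Other genes of the same route were read from 4 lists. Of 20 tested of 28 other granule cargo and processing genes, 10 were higher and 0 lower in adults than at E18.5, with a median difference of 0.36 beside -0.01 over all genes, and 7 were higher and 1 lower in adults than at P1, with a median of 0.18. Of all tested genes, 18.4% were higher and 21.8% lower in adults than at E18.5, and 17.6% higher and 19.5% lower in adults than at P1. Scg2, the granin secretogranin II, was higher in adults than at P1 by 1.19 ± 0.26, or 2.28-fold (adjusted p = 0.0024), and by 1.80 ± 0.24 over E18.5. Pam, the enzyme that amidates the end of peptides such as amylin, was higher in adults than at P1 by 0.93 ± 0.17, or 1.91-fold (adjusted p = 0.00059). Ptprn, a protein of the granule membrane, was higher by 0.93 ± 0.14 (adjusted p = 0.00011). Pcsk1n encodes proSAAS, an inhibitor of the Pcsk1 convertase, and had levels of 9.46, 9.20, 8.96 and 8.97 at E18.5, 9.52, 9.87 and 9.71 at P1, 10.46 and 10.78 at P10, and 10.26, 10.34 and 10.28 in adults. It rose at P10 by 0.92 ± 0.16 over P1 (adjusted p = 0.0023), and adults exceeded E18.5 by 1.15 ± 0.14. Ica1 was the 1 gene of the list that was lower in adults than at P1, at -0.43 ± 0.13 (adjusted p = 0.015). Under median centring or with no scaling, 2 of these genes were lower in adults than at E18.5, and 3 were without adult replicate 3 and 1 without E18.5 replicate 1. The 1 lower in adults than at P1 became 0 without P1 replicate 2, P1 replicate 3 or adult replicate 2, and 4 without adult replicate 3.

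The vacuolar proton pump acidifies the granule and so sets the working pH of the convertases. Of 19 tested of 20 granule acidification genes, 6 were higher and 1 lower in adults than at E18.5, with a median difference of 0.26, and 2 were higher and 1 lower in adults than at P1, with a median of 0.16. Beside the 40.2% and 37.2% of all genes called in these comparisons, the 7 of 19 is a near share and the 3 of 19 a lower one. Atp6v1a, the catalytic subunit, was higher in adults than at P1 by 0.72 ± 0.12 (adjusted p = 3e-04), and Atp6v1g2 by 1.13 ± 0.23 (adjusted p = 0.0016). The 2 higher in adults than at P1 became 4 without adult replicate 1. Tcirg1, a membrane subunit of the pump, was lower in adults than at E18.5, at -0.52 ± 0.10 (adjusted p = 0.00062). Its probe was dim, with a deposited intensity between 47.8 and 67.4, and adult replicate 3 was not above background, so the difference is partly against background signal. The call of Tcirg1 in adults against P1 (-0.43 ± 0.10) was lost with the mean of its probes, at -0.23 (adjusted p = 0.1).

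Zinc is stored with insulin at high concentration. Of 17 tested of 22 zinc handling genes other than Slc30a8, 4 were higher and 2 lower in adults than at E18.5, with a median of 0.10, and 5 were higher and 2 lower in adults than at P1, with a median of 0.26. The 6 and 7 of 17 called are shares near the 40.2% and 37.2% of all genes. One of the 4 higher than at E18.5 was Slc39a5, at 0.40 ± 0.14 (adjusted p = 0.038). Its probe lay above background in 1 of 3 adults and 0 of 4 E18.5 samples, so this call is mostly between background signals. The metallothioneins Mt1 and Mt2, which bind zinc in the cytosol, were higher in adults than at P1 by 1.98 ± 0.46 (3.95-fold, adjusted p = 0.0035) and 1.33 ± 0.27 (adjusted p = 0.0015). The Mt2 probe was dim, above background in 3 of 3 adults, 2 of 3 P1 samples and 1 of 4 E18.5 samples, so its difference is partly against background signal. Slc30a6, a zinc transporter of the Golgi, was higher by 0.61 ± 0.13 (adjusted p = 0.0021). Slc30a1, the zinc exporter of the cell surface, was lower in adults than at P1, at -0.79 ± 0.17 (adjusted p = 0.0021). The 2 lower in adults than at E18.5 became 1 without E18.5 replicate 1, 3 or 4 or adult replicate 3, and the 2 lower than at P1 became 1 without P1 replicate 3 or adult replicate 2 or 3.

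Proinsulin enters the endoplasmic reticulum and forms its disulfide bonds with the products of the last list. Of 27 tested of 31 genes, 9 were higher and 4 lower in adults than at E18.5, with a median difference of 0.24, and 12 were higher and 1 lower in adults than at P1, with a median of 0.35. The 13 of 27 called in each stand beside 40.2% and 37.2% of all genes. Ero1b, the oxidase that drives disulfide formation in the endoplasmic reticulum of beta cells, had levels of 9.54, 10.35, 10.55 and 10.21 at E18.5, 9.74, 9.77 and 9.90 at P1, 10.92 and 10.92 at P10, and 11.52, 11.59 and 11.66 in adults. All adults were above all P10 samples and these above all younger ones, and adults exceeded P1 by 1.79 ± 0.19, or 3.45-fold (adjusted p = 6.1e-06). Ero1b was the one gene of the list that still passed in adults against P1 with the acinar term. Sec63, which works with the Sec61 channel, was higher in adults than at P1 by 1.22 ± 0.13, and Sec11c, a catalytic subunit of signal peptidase, by 1.25 ± 0.18. Pdia6, a disulfide isomerase, had levels of 8.83, 8.65, 8.82 and 8.89 at E18.5, 7.71, 7.80 and 7.81 at P1, 8.16 and 7.81 at P10, and 8.62, 8.74 and 9.40 in adults. It was lower at P1 than at E18.5 at -1.02 ± 0.16 (adjusted p = 0.0053) and higher in adults than at P1 by 1.14 ± 0.17 (adjusted p = 0.00012). Sec61b and Pdia4 were the other 2 genes lower at P1 than at E18.5, at -0.73 ± 0.17 and -0.93 ± 0.19, with adjusted p of 0.024 and 0.014. These 3 became 1 without P1 replicate 1 or P1 replicate 2. The 1 lower in adults than at P1 became 0 without P1 replicate 3 or adult replicate 2 and 2 without E18.5 replicate 1.

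The acinar markers were higher in the same comparisons as these lists. With the acinar term, 46 of 53 called differences of the genes named by the smallest F-test p were no longer past the threshold. Of these 46, 19 differences were as large or larger with the term and 27 were smaller, and the standard error was 2.55 times as large at the median. Slc30a1 in adults against P1 was -1.31 ± 0.39 with the term (adjusted p = 0.085) and Slc30a6 0.92 ± 0.31 (adjusted p = 0.13), while Scg2 was 0.72 ± 0.62 (adjusted p = 0.6). Calls were lost for 9 of the 53 with the term for other islet cells. With the other islet cell term 4 other granule cargo genes and 5 genes of entry into the endoplasmic reticulum were higher in adults than at E18.5.

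**Figure D5:**
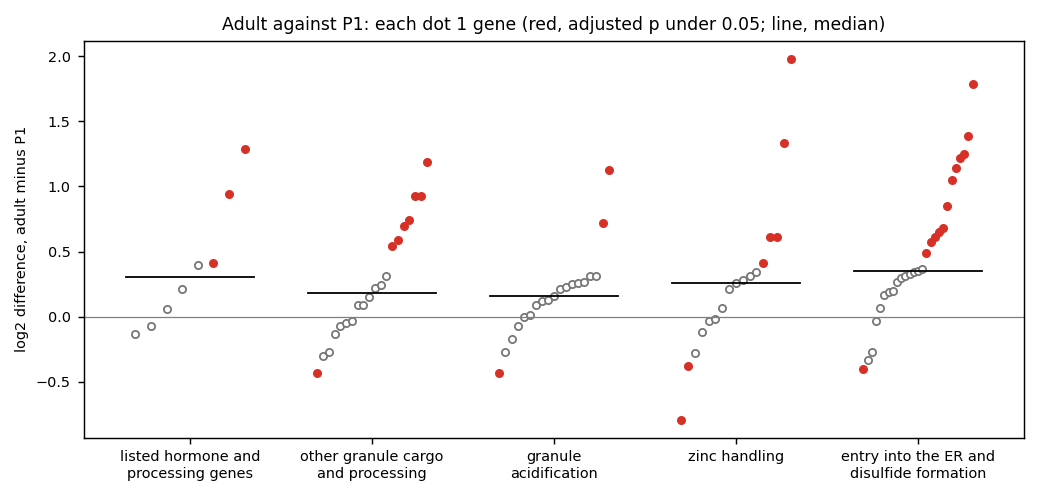
Adult minus P1 log2 difference of every tested gene of the 4 lists and of the 8 genes described here, each dot 1 gene, red for an adjusted p under 0.05 and a line for the median. The median is 0.31 for the 8 genes, 0.18 for other granule cargo, 0.16 for acidification, 0.26 for zinc handling and 0.35 for entry into the endoplasmic reticulum.

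Likeness of pattern was measured as the root mean square difference of mean-centred log2 levels over the 12 samples, as a description with no test. The genes closest to Iapp were Adk (0.29), Selenop (0.29) and Nxt2 (0.31), where the median of all genes was 0.65. The genes closest to Scg5 were Rcan2 (0.15), Il20ra (0.16) and Erlec1 (0.17), against a median of 0.53. The genes closest to Chga were Tom1 (0.13), Pdxdc1 (0.15) and Ostm1 (0.17), against a median of 0.42.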

How the data were processed

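The 8 measured genes, the 4 pathway lists and the marker lists were chosen with earlier results of these data known. RNA of 12 samples was hybridised to 1 Illumina array each, and per the labels' protocols it was copied into biotin-labelled RNA with an Illumina amplification kit. The values are the linear intensity of 25697 probes as deposited by the authors. How they were scanned, scaled or corrected was not given in the sources used here. A second table with 24 columns was not used, since its column names match no sample. Its detection p-values would have served the background step, so the background was read from the signals instead. Each array was corrected by normexp (offset 16), then quantile-normalized and put on the log2 scale. The spread of log2 signals below an array's mode set its background limit (p of 0.01), which 13438 probes exceeded on at least 2 arrays. Gene symbols came from the platform table, with 23978 probes of 1 symbol and 1719 unnamed here, and were updated through gene IDs of 23962 probes. The brightest probe per gene left 9352 genes.

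Genes were tested with limma 3.58.1 in R 4.3.3 with age as the factor over the 12 samples, Benjamini-Hochberg adjustment over all genes and a threshold of 0.05. The same fit was also run on simulated levels drawn with the means and within-age spread of these data. The outcome of that run is not given here, and no result above rests on it. The genes named were all members, the 6 genes per pathway list with the smallest F-test p, genes of these lists past the threshold, and the 3 nearest patterns. Plots used matplotlib 3.10.9 under Python 3.11.15. Alternatives changed the offset, the scaling, the filter on dim probes and the summary over probes, fitted eBayes with trend and robust options, weighted the arrays, blocked on the replicate number, added a marker list to the model, kept only the compared ages, or left out each sample. The counts of the pathway lists under these settings were added after seeing the data. Replicate numbers came from the titles. Same-numbered samples of different ages correlated in their deviations between -0.07 and 0.28 over 15 pairs, and others between -0.28 and 0.27 over 38 pairs, so the numbers were not taken to pair samples.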

Additional observations from a re-analysis of the deposited data

Results flagged for a closer look

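For each of 32 genes, the 4 samples at E18.5 were searched for one that stood apart. No other age had 4 samples, so P1, P10 and adults were not examined. Of these 32 groups, 2 held a sample whose distance to its nearest neighbour was a large part of the range of the group. Chance gives this in about 1 in 20 groups, and the groups are not independent, since all hold the same samples. Chga at E18.5 was one: replicate 1 had a log2 level of 11.29 with the nearest of the others at 11.92, a gap of 0.98 of the range. All 3 Chga probes were lowest in that sample, and without it Chga was higher in adults than at E18.5 by 0.55 (adjusted p = 0.0021, limma). Mt2 at E18.5 was the other, with replicate 4 at a log2 level of 4.56 and the nearest at 4.77, a gap of 0.83 of the range. Mt2 lay above background in 1 of the 4 E18.5 samples, and neither of these values did, so the gap is between background signals.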

How the results depend on the processing

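Over 25 alternatives, 1000 differences of the 8 genes were recomputed, of which 972 kept their side of the threshold, 17 lost a call, 11 gained one and 0 reversed a called direction. The main fit called 0, 1, 0, 3 and 3 of the 8 genes in the 5 comparisons, so most of the 972 were differences that stayed uncalled. Each of the called differences was lost under at least 1 alternative. Among differences uncalled in both fits, 43 changed sign. The number passing the F-test over the 4 ages, 3, was 5 on the deposited log2 values without scaling and 1 with the acinar term. At P1 against E18.5 the count of 0 became 1, Chga, on the deposited log2 values, with probes above background on all 12 arrays, with trend and robust settings, with array weights and with the acinar term. With the acinar term limma's count was 0 at P10 against P1, 0 in adults against E18.5 and 0 in adults against P1 (2, 1 and 2 at an unadjusted p under 0.05), and with the other islet cell term it was 1 in adults against E18.5. The cause was not tested. With each sample left out in turn, the counts ranged from 3 to 4 in the F-test, 0 to 0 at P1 against E18.5, 0 to 1 at P10 against P1 (0 without P10 replicate 1), 0 to 1 in adults against P10 (1, Vgf, without adult replicate 1), 2 to 4 in adults against E18.5 and 2 to 3 in adults against P1. With the replicate number as a block, the member counts stayed at 3 in the F-test, 0, 1 and 0 between neighbouring ages, and 3 and 3 in adults against E18.5 and P1. Over all genes at P1 against E18.5 the count of 502 was 215 with that block, 998 with array weights, 221 with the acinar term and 114 without P1 replicate 2. At P10 against P1 it was 1074, against 51 with the acinar term and 388 without P10 replicate 1. In adults against E18.5 it was 3761, against 121 with the acinar term and 2261 with the other islet cell term, and in adults against P1 3476, against 349 with the acinar term. Median centring moved the split in adults against E18.5 to 1191 higher and 2656 lower, against 1724 and 2037. Of 1321 recomputed called differences of named pathway genes 123 were lost and 0 reversed, and 46 of the 53 were lost with the acinar term, 19 of them with a difference as large or larger and with a standard error 2.55 times as large at the median of the 46. The small number of arrays, and the dim signal of Pcsk1, limit what could be seen.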
